A study of Sus scrofa with 27 samples.

Results

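The genes described here make the building blocks of DNA and RNA. They comprise 33 listed genes of nucleotide synthesis and one-carbon metabolism, and 30 of them had a pig identifier paired with their symbol and a mean count of at least 5 in the 27 libraries. RRM2, DCK and PFAS had no identifier paired with their symbol in the table used and were not analysed here. The 30 measured genes were 7 of deoxynucleotide supply, 6 of pyrimidine synthesis, 11 of purine synthesis, 2 of folate metabolism and 4 of the pentose phosphate pathway, out of 11385 named genes tested.

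Mural granulosa cells, the layer lining the follicle wall, were taken by laser capture from 1 follicle a sow, the largest one judged healthy in the right ovary, and their RNA was sequenced after removal of rRNA. All animals were wild type Large White times Norwegian Landrace sows, sampled on day 2 after weaning. The 13 full-fed (FF) sows received 6.5 kg of feed a day and the 14 restricted (RES) sows 3.25 kg a day over the last 2 weeks of lactation. For the days between weaning and sampling the labels call both groups fully fed, whereas the study's methods give all sows 1 common ration that was smaller than either of these. The RES sows were those of a larger trial with the highest loss of body weight and the FF sows those with the lowest, so the groups differ by selection as well as by feed. The study also reports that the largest healthy follicle was smaller in RES than in FF. Follicle size is not given by sow in the labels, so diet and follicle size cannot be told apart in the results below.

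Cells build purine and pyrimidine rings step by step from amino acids, carbon dioxide and one-carbon units carried by folate, on a ribose phosphate supplied by the pentose phosphate pathway. Ribonucleotide reductase then turns ribonucleotides into deoxynucleotides, and thymidylate synthase makes the thymine nucleotide that only DNA needs. Granulosa cells divide while follicles grow, and several enzymes of deoxynucleotide supply are known to be made mainly in cells that are copying their DNA. PCNA, the sliding clamp of DNA polymerase, was used as the measure of replication to which the members were compared.

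Library totals ranged from 12299220 to 16021200 counts in FF and from 12942198 to 18120922 in RES. Of the 12 granulosa markers listed, FOXL2 and CYP19A1 had no identifier paired with their symbol and were not tested. None of the 10 granulosa markers tested passed the edgeR test between the diets. The study itself reports lower CYP19A1 and higher INHBB in RES. INHBB came nearest at a log2 fold change of 0.66 (adjusted P = 0.0907), and it passed in the upper read quality group described next (1.30, adjusted P = 0.0124), as did AMH (1.32, adjusted P = 0.0376). The markers' summed normalized count was 71700 to 122000 in FF and 77200 to 148000 in RES. Of markers of other cell types, CYP11A1 of the 8 theca markers tested (log2 fold change -1.28, edgeR adjusted P = 0.00922), 3 of 6 endothelial markers, 1 of 7 markers of stroma and smooth muscle and 1 of 2 erythroid markers were lower in RES, and none of the 3 immune markers passed the test. The summed endothelial level was 1090 to 2320 in FF and 755 to 2290 in RES, and the summed theca level 8680 to 41000 in FF and 2710 to 35000 in RES. Most of the theca sum was LHCGR, the receptor for luteinizing hormone (mean 15390 in FF and 9420 in RES), which granulosa cells of growing follicles also make, so the sum does not measure theca content. The part of these markers in the results below was not tested, and in such samples fewer cells of a type and less RNA per cell cannot be told apart. The libraries fell into an upper group by base quality of the reads (7 FF and 7 RES) and a lower group (6 FF and 7 RES), and RES sows 3 and 5 stood apart from the rest in read quality. The group of FF sow 10 is uncertain, because its records name different sows for a low RNA Integrity Number.

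Short stretches before the gene start of 3 members that rose in RES are shown as examples of the words searched for, which are often found in promoters of genes used in the S phase. They come from the Sscrofa11.1 genome with gene starts from RefSeq, and are written 5′ to 3′ on the strand of the gene, with the matched word in capitals (CCAAT or its reverse complement in RRM1 and TK1, an E2F word in DHODH). The DHODH stretch also ends in the reverse complement of CCAAT, left in lower case.
RRM1 (chr9:6065263-6065347, minus strand): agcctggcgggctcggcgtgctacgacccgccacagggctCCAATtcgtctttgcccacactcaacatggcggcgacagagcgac
TK1 (chr12:3785914-3785996, plus strand): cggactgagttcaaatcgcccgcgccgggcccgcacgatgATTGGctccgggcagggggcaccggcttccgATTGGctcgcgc
DHODH (chr6:14942788-14942875, plus strand): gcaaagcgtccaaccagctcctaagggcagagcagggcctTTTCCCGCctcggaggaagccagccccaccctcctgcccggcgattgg

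Promoters of all 33 listed genes were searched from 250 bases before to 50 bases after the gene start, on both strands, for CCAAT and for the E2F words TTTCCCGC, TTTGCCGC, TTTCGCGC and TTTGGCGC. CCAAT was present in 18 of the 33, beside 35.4% of 19556 promoters of the same length. An E2F word was present in 4 (TYMS, DHODH, PRPS1 and PRPS2), beside 3.35% of those promoters. A match describes the letters of the window and not a bound site. Of the 9 members that rose in RES, described below, 4 (DUT, UMPS, IMPDH2 and TKT) held neither word in this window, and members that were not called held them too, such as DTYMK with 8 matches of CCAAT.

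Of the 30 members, 9 rose in RES and none fell by edgeR's quasi-likelihood test with Benjamini-Hochberg adjustment over all genes, beside 8.28% of all genes tested that rose and 5.85% that fell. At an unadjusted P below 0.05 there were 16 members, beside 3420 of the 11385 genes. DESeq2's Wald test also found 9 that rose and none that fell, beside 1087 and 848 of all genes. The members' median log2 fold change was 0.27, beside -0.02 over all genes tested, and 23 of 30 values were above 0. SHMT1, which met the mean count only through RES, is counted in the 16, the median and the 23, and adds no support there. The 36 measured genes of a DNA replication list had a median of 0.85, and 29 of them rose. PCNA itself rose by a log2 fold change of 0.90 (SE 0.22, edgeR adjusted P = 0.00736), with a median normalized count of 1084 in FF and 2109 in RES.

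**Figure D1:**
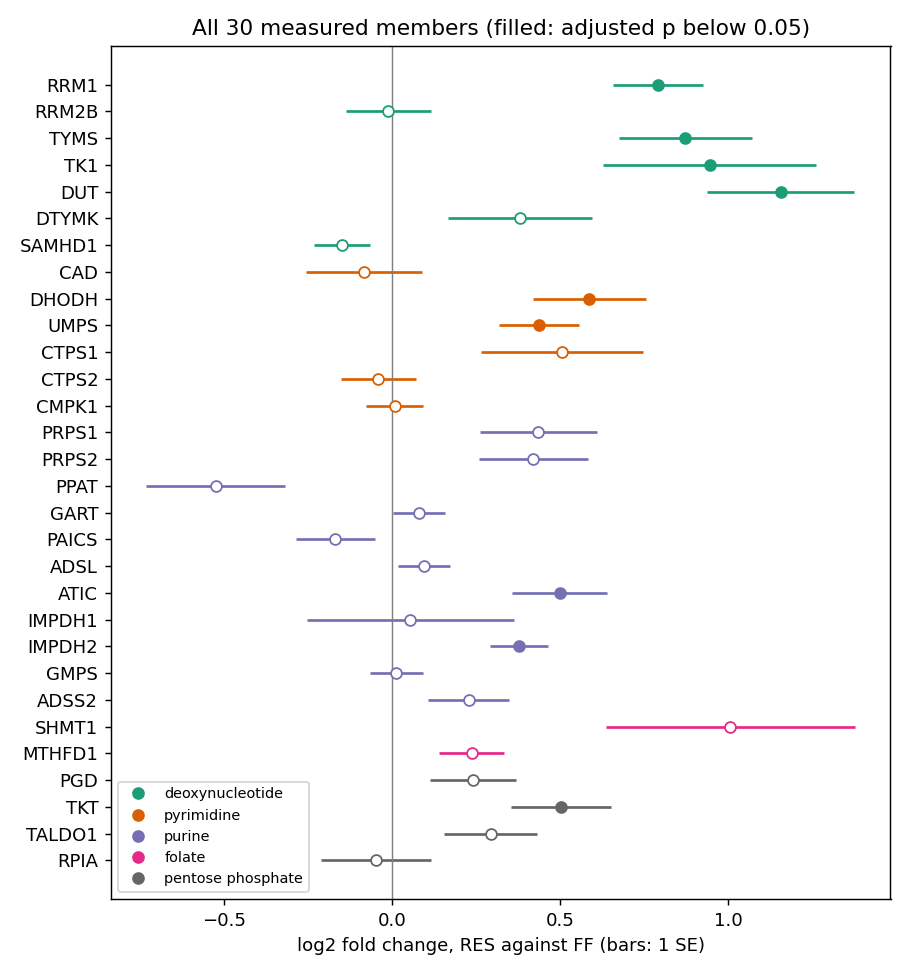
Log2 fold change of RES against FF (x axis, bars of 1 SE) for each of the 30 measured members (y axis), coloured by subgroup, filled where the edgeR adjusted P was below 0.05. The 4 filled deoxynucleotide genes lie between 0.79 and 1.16, and no member below 0 is filled.

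Among the members that passed the test, the 4 with the largest changes were deoxynucleotide genes. This subgroup had 4 of 7 that rose and a median log2 fold change of 0.79. Positions are those of RefSeq genes on Sscrofa11.1. RRM1 (chromosome 9, bases 6026151 to 6065211 on the minus strand) is the large subunit of ribonucleotide reductase, which makes all deoxynucleotides. Its normalized count was 1024 at the lowest, 1670 at the median and 2272 at the highest in FF, and 1423, 2842 and 3946 in RES. The groups overlapped only in the low RES sows, as 11 of 14 RES sows lay above the highest FF sow. The log2 fold change was 0.79 (SE 0.13, edgeR adjusted P = 0.00183).

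DUT (chromosome 1, bases 123451207 to 123462267 on the minus strand), the enzyme that removes dUTP and so keeps uracil out of DNA, had the highest fold change of the members. Its normalized count ran from 98.0 through a median of 234.4 to 564.2 in FF, and from 174.7 through 655.4 to 978.5 in RES. Here 10 of 14 RES sows exceeded every FF sow, and the log2 fold change was 1.16 (SE 0.22, edgeR adjusted P = 0.00194). A long non-coding RNA lies on the opposite strand of DUT, and the deposited counting used no strand option, so reads of both cannot be told apart. In RefSeq a gene on the other strand also overlaps SAMHD1, CTPS1 (a miRNA), CTPS2, PRPS2, ADSS2, SHMT1, MTHFD1 and TALDO1.

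TYMS (chromosome 6, bases 105642730 to 105660279 on the minus strand) makes dTMP from dUMP with a folate cofactor. It ranged from 64.8 to 230.2 normalized counts in FF with a median of 138.1, and from 84.9 to 396.6 in RES with a median of 271.7. The log2 fold change was 0.87 (SE 0.20, edgeR adjusted P = 0.00406), and 10 RES sows were above the highest FF sow.

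TK1 (chromosome 12, bases 3785997 to 3794824 on the plus strand), the thymidine kinase of the salvage route, was a low count gene. Values were 3.55 to 47.9 with a median of 16.9 in FF, and 8.99 to 97.9 with a median of 36.2 in RES. The groups overlapped over most of their range, with 3 RES sows above the highest FF sow. Its log2 fold change of 0.94 (SE 0.32, edgeR adjusted P = 0.0431) was close to the threshold, and with 1 library removed at a time it was called in 13 of 27 fits. Across those fits the log2 fold change was 0.79 to 1.12. Without RES sows 3 and 5 together it was 0.80 and not called (adjusted P = 0.09).

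The other deoxynucleotide members gave no call. RRM2B, the subunit of ribonucleotide reductase used outside the S phase, had medians of 393.8 in FF and 383.4 in RES and a log2 fold change of -0.01 (SE 0.13, edgeR adjusted P = 0.964). DTYMK, which phosphorylates dTMP, had a value of 0.38 (adjusted P = 0.235), and SAMHD1, which breaks deoxynucleotides down, -0.15 (adjusted P = 0.232).

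**Figure D2:**
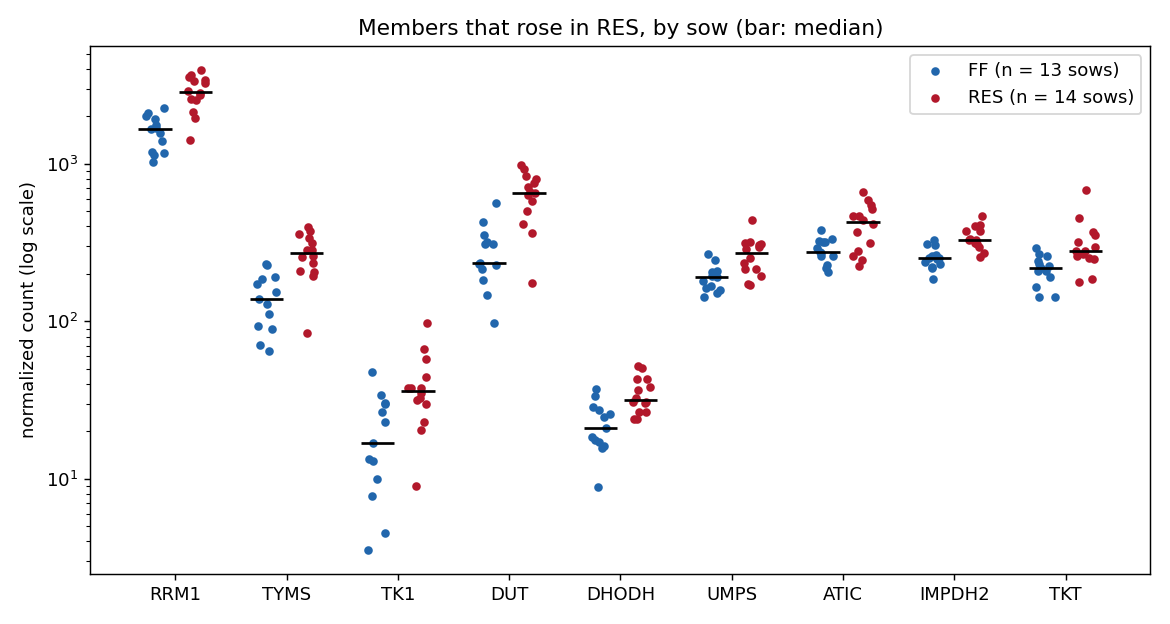
Normalized count (y axis, log scale) of the 9 members that rose in RES, 1 point a sow, with FF (n = 13) and RES (n = 14) side by side and a bar at each median. Every gene has a higher RES median, and in each gene some RES sows lie within the FF range.

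Of the 6 pyrimidine genes, 2 rose. DHODH (chromosome 6, bases 14942898 to 14956000 on the plus strand) is the mitochondrial enzyme that makes orotate. It ranged from 8.86 to 37.2 in FF with a median of 20.9, and from 24.0 to 52.2 in RES with a median of 31.8. All 14 RES sows lay above the FF median and 5 above the highest FF sow, and the log2 fold change was 0.59 (SE 0.17, edgeR adjusted P = 0.0197). DHODH too is overlapped on the other strand by a long non-coding RNA.

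UMPS (chromosome 13, bases 135611857 to 135650656 on the minus strand) turns orotate into UMP. It ranged from 141.8 to 266.9 in FF with a median of 190.8, and from 169.2 to 437.7 in RES with a median of 270.5. Its log2 fold change was 0.44 (SE 0.12, edgeR adjusted P = 0.0157), and 7 RES sows exceeded every FF sow. CAD, the enzyme of the first steps of the same route, was at -0.08 on the log2 scale (SE 0.17, adjusted P = 0.79), and CMPK1, a kinase for UMP and CMP, at 0.01 (adjusted P = 0.965). The first enzyme of the route thus gave no call while the enzymes of the last steps to UMP did. The difference between them was not tested.

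The 2 CTP synthases were compared as a ratio within each sow. CTPS1 differed by 0.51 on the log2 scale (SE 0.24, edgeR adjusted P = 0.153) and CTPS2 by -0.04 (SE 0.11, adjusted P = 0.842). By read quality group, CTPS1 was at 1.02 in the upper (edgeR adjusted P = 0.0404) and -0.03 in the lower (0.98). CTPS2 was at 0.05 and -0.14. In FF the log2 ratio of CTPS1 to CTPS2 averaged -1.11 ± 0.97 (SD, n = 13). In RES it averaged -0.44 ± 0.66 (SD, n = 14). The difference of 0.68 had P = 0.0438 in a two-sided permutation test, and 0.132 after adjustment over the 3 ratios computed, so it did not pass.

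In purine synthesis 2 of 11 genes rose. IMPDH2 (chromosome 13, bases 31658642 to 31663660 on the minus strand) commits IMP to guanine nucleotides. It ranged from 186.5 to 326.7 in FF with a median of 250.6, and from 257.6 to 468.4 in RES with a median of 327.7. Every RES sow lay above the FF median and 8 above the highest FF sow. The log2 fold change was 0.38 (SE 0.09, edgeR adjusted P = 0.00487).

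ATIC (chromosome 15, bases 117617584 to 117649063 on the plus strand) closes the purine ring in the last 2 steps to IMP. It ranged from 206.4 to 381.5 in FF with a median of 274.4, and from 225.0 to 664.4 in RES with a median of 426.3. Its log2 fold change was 0.50 (SE 0.14, edgeR adjusted P = 0.0197), with 8 RES sows above every FF sow. No other purine enzyme was called. GART, which acts at 3 early steps, was at 0.08 (adjusted P = 0.525) and ADSL, which releases fumarate on the way to IMP and AMP, at 0.09 (adjusted P = 0.44). ADSS2, which leads IMP towards AMP, was at 0.23 (adjusted P = 0.2) and GMPS, which makes GMP, at 0.01 (SE 0.08, adjusted P = 0.939).

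PPAT, the enzyme that commits ribose phosphate to purines, had the lowest log2 fold change of the members at -0.52 (SE 0.21, edgeR adjusted P = 0.0842). Its values were 53.2 to 450.4 in FF with a median of 194.4, and 126.3 to 284.4 in RES with a median of 154.4, so the RES range lay inside the FF range. Its neighbour PAICS, which acts in the middle of the route, had a value of -0.17 (SE 0.12, adjusted P = 0.349), and FF sow 14 was the highest FF sow for both genes. In RefSeq the genes point away from each other on chromosome 8 and their first bases overlap, with PPAT starting at 55701077 on the minus strand and PAICS at 55700700 on the plus strand. Counts there cannot be assigned by strand.

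PRPS1 and PRPS2, the 2 synthases of the ribose phosphate donor, had similar values of 0.43 (adjusted P = 0.0883) and 0.42 (adjusted P = 0.0776), neither called by edgeR. Their log2 ratio averaged 2.07 ± 0.60 in the FF sows (SD, n = 13) and 2.02 ± 0.64 in the RES sows (SD, n = 14), and the permutation test gave P = 0.843. For IMPDH2 against IMPDH1 the log2 ratio was 4.96 ± 1.03 (SD, n = 13) and 4.98 ± 0.54 (SD, n = 14), with a permutation P = 0.941. IMPDH1 was a low count gene with an SE of 0.31 on a log2 fold change of 0.05 (edgeR adjusted P = 0.932), which leaves this ratio wide.

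Neither folate member passed the test. MTHFD1, the cytosolic enzyme that interconverts folate one-carbon units, had a log2 fold change of 0.24 (SE 0.10, edgeR adjusted P = 0.101). SHMT1, which takes one-carbon units from serine in the cytosol, had a value of 1.01 (SE 0.37, adjusted P = 0.0652) from medians of 2.66 and 6.37 normalized counts, which is little depth. It met the mean count of 5 only through RES (mean 3.19 in FF and 6.62 in RES), so its test is no support for a difference.

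Of the 4 pentose phosphate genes, TKT (chromosome 13, bases 35348921 to 35377518 on the minus strand) rose. This transketolase of the non-oxidative branch ranged from 142.1 to 290.5 in FF with a median of 216.9, and from 177.6 to 678.2 in RES with a median of 279.1. Its log2 fold change was 0.50 (SE 0.15, edgeR adjusted P = 0.0241) and 0.38 without RES sows 3 and 5 (adjusted P = 0.0512), so the call rested in part on these libraries. PGD, the dehydrogenase that yields ribulose phosphate and NADPH, was at 0.24 (adjusted P = 0.207). TALDO1, the transaldolase, was at 0.29 (adjusted P = 0.154) and RPIA, which makes ribose phosphate, at -0.05 (adjusted P = 0.88).

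RES sow 3 was the highest RES sow for 13 of the 30 members and for 6 of the 9 that rose. Without RES sows 3 and 5, an alternative chosen after the data were seen, 7 members rose and none fell, beside 915 and 550 of all genes.

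The diet contrast was also fitted within each read quality group. In the upper group 14 members rose and 1, PPAT, fell, beside 1120 and 904 of all genes. One of the 14 was SHMT1, which met the filter only through RES. In the lower group no member and 1 of all genes passed, and 2 of 30 members had an unadjusted P below 0.05, beside 1386 of 11385 genes. Those 2 members were RRM1 and DUT. RRM1 was higher in RES by 0.97 (log2, SE 0.18) in the upper group and by 0.59 (SE 0.17, adjusted P = 0.171) in the lower, and DUT 1.21 (SE 0.29) and 1.11 (SE 0.29, adjusted P = 0.134). In the same order, TYMS was at 1.17 and 0.55, TK1 at 1.23 and 0.63, and DHODH at 0.83 and 0.33. UMPS was at 0.64 and 0.21, ATIC at 0.73 and 0.22, IMPDH2 at 0.50 and 0.25, and TKT at 0.72 and 0.27. No gene passed the edgeR test of the difference between the quality groups, although 4 members and 1398 of all genes had an unadjusted P below 0.05. The lowest P among members was 0.00496 for MTHFD1, at 0.50 in the upper and -0.04 in the lower group.

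Among 60 other measured genes of the same pathways, 9 passed as higher in RES and 2 as lower, beside the 8.28% and 5.85% of all genes. Deoxynucleotide and nucleoside enzymes among them were NT5C, a nucleotidase (log2 fold change 0.97, SE 0.31, edgeR adjusted P = 0.0321), and the kinases NME1, NME2 and NME3, at 0.39 (adjusted P = 0.0462), 0.45 (adjusted P = 0.0338) and 0.54 (adjusted P = 0.0321). In the folate and serine list PHGDH, the first enzyme of serine synthesis, rose by 1.06 (SE 0.26, adjusted P = 0.00743), with SHMT2 at 0.37, MTHFD2 at 0.43 and AHCY at 0.50. TKTL1, a transketolase-like gene, is counted in the 9 but met the mean count only through RES, and there through RES sow 12 at 204.5 against a RES median of 1.35 and an FF median of 0. Its log2 fold change of 3.17 (SE 1.04, adjusted P = 0.0398) was 0.14 (adjusted P = 0.927) without that sow and 1.19 (adjusted P = 0.489) with a replicate block. With 1 library removed at a time, PHGDH, SHMT2 and RBKS were called in all 27 fits, NME1 in 9, and the other 7 in 17 to 21. Without RES sows 3 and 5, NME1 (adjusted P = 0.0666), NME3 (0.0882), NT5C (0.0539) and SHMT2 (0.0524) were no longer called, at log2 fold changes of 0.39, 0.41, 0.86 and 0.30. The genes that fell were NT5C2, a purine nucleotidase (-0.38, adjusted P = 0.0322), and RBKS, ribokinase (-0.31, adjusted P = 0.015). With the replicate block NT5C (edgeR adjusted P = 0.0772), MTHFD2 (0.0613), AHCY (0.0873) and NT5C2 (0.068) were not called either.

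Each member's normalized count was then correlated with that of PCNA across sows, with P from 100000 permutations and adjustment over all genes. Both values of a sow come from the same library and share its scaling. With each diet centred on its own mean (n = 27), 10 of 30 members were called with r above 0, beside 13.2% of all genes, and none with r below 0, beside 6.41%. The members' median r was 0.41, beside 0.05 over all genes. In the DNA replication list, 29 of the 35 genes other than PCNA were called, and their median r was 0.75.

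DUT (r = 0.86, Spearman's rho = 0.84, permutation P = 1e-05 for each, the smallest these permutations can give) and RRM1 (r = 0.86, rho = 0.82, the same P) had the highest correlations. The 2 sows farthest from the median of PCNA, after each diet was centred on its mean, were RES sows 6 and 7. Without these 2 sows r was 0.84 for DUT and 0.80 for RRM1. With all sows centred within read quality groups it was 0.86 and 0.82. TYMS had r = 0.66 (rho = 0.63, permutation adjusted P = 0.00725) and TK1 r = 0.61 (rho = 0.70, permutation adjusted P = 0.0182), so 4 of 7 deoxynucleotide members were called. Without those 2 sows TK1 had r = 0.51 and an adjusted P of 0.0927.

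GMPS was next, with r = 0.80 (rho = 0.72, permutation adjusted P = 0.000336), although its level gave no call between the diets. In RES its normalized counts ran from 974.4 to 1779 and r was 0.90 (n = 14, rho = 0.86, permutation adjusted P = 0.00104). In FF they ran from 1013 to 1453 and r was 0.54 (n = 13, rho = 0.38, permutation adjusted P = 0.406). PRPS1 (r = 0.73, rho = 0.76, adjusted P = 0.00112) and ATIC (r = 0.72, rho = 0.68, adjusted P = 0.00453) followed.

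ADSS2 (r = 0.63), UMPS (r = 0.61) and IMPDH2 (r = 0.56) made up the rest of the called members. The call of ADSS2 was lost with Spearman's rho (0.50, permutation adjusted P = 0.0708) and without the 2 farthest sows (r = 0.47, adjusted P = 0.134), and IMPDH2 was lost without them (r = 0.54, adjusted P = 0.0738). UMPS, the single pyrimidine member called, was lost in 3 of 5 alternatives, which were the log2 scale, TMM-scaled counts and centring within quality groups (r = 0.54, adjusted P = 0.0508 for the last). IMPDH2 was also lost with TMM-scaled counts. The lowest values belonged to PPAT (r = -0.21), RRM2B (r = 0.00) and PAICS (r = 0.06), none of them called.

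**Figure D3:**
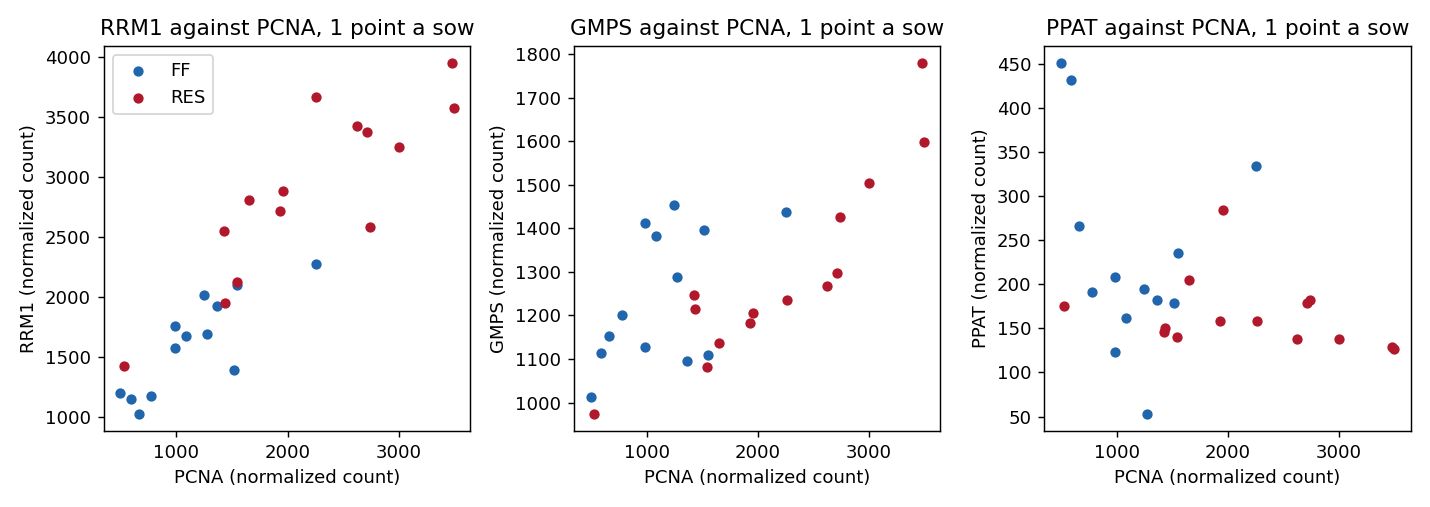
Normalized count of RRM1, GMPS and PPAT (y axes) against that of PCNA (x axes), 1 point a sow, FF and RES in different colours. RRM1 and GMPS rise with PCNA within RES (r = 0.86 and 0.90), and PPAT does not (r = -0.30).

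Taken by diet, 8 members were called in RES (n = 14), beside 9.48% of all genes, and 1 in FF (n = 13), beside 0.966%. The single FF call was RRM1 (r = 0.83, rho = 0.81, permutation adjusted P = 0.0393), which was lost without the 2 farthest sows (r = 0.75, adjusted P = 0.326), where none of the 11384 genes was called in FF and 928 had an unadjusted P below 0.05. The 8 in RES were GMPS, DUT, RRM1, ATIC, PRPS1, ADSS2, UMPS and IMPDH2. Without RES sows 6 and 7, the farthest from the PCNA median, DUT and GMPS remained called. The calls over all genes with r above 0 went from 1079 to 249. Without these sows r was still 0.79 for RRM1, 0.76 for ATIC, 0.77 for PRPS1, 0.80 for UMPS and 0.73 for IMPDH2. For ADSS2 it was 0.54. With all sows DUT had r = 0.81 in FF and 0.87 in RES. ATIC had 0.25 and 0.81, and UMPS 0.27 and 0.70. Whether r differed between the diets was not tested.

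**Figure D4:**
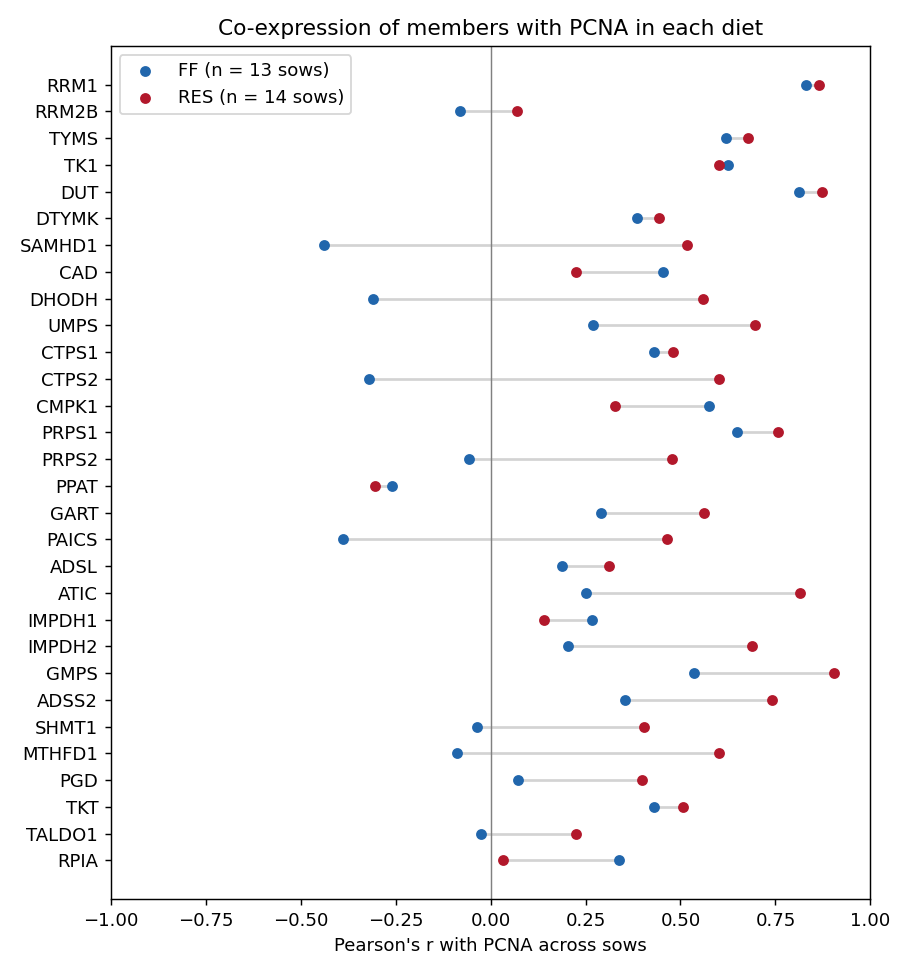
Pearson's r with PCNA across sows (x axis) for each of the 30 members (y axis), in FF (n = 13) and in RES (n = 14), joined by a grey line. In RES 29 of 30 members have r above 0, beside 6182 of 11384 genes, and in FF 20, beside 6225 genes.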

How the data were processed

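The authors removed reads with adapters, many undetermined bases or low quality, aligned the rest to Sscrofa11.1 with HISAT2 2.2.1, kept unique alignments (SAMtools 1.16.1), removed duplicates by molecular identifier (UMI-tools 1.1.4) and counted exons per Ensembl gene with featureCounts 1.6.2 without a strand option. The deposited values are these raw counts, 1 file a sow. Each sow is 1 library, and the spread between sows includes counting error, which takes a larger part of it in genes with low counts.

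Symbols were taken from a table of gene identifiers (15623 of 35670 matched). The 11385 named genes with a mean count of at least 5 were tested with edgeR 4.0.16 (TMM scaling, quasi-likelihood test, FF as reference), and calls had an adjusted P below 0.05 by Benjamini-Hochberg. Levels given are counts divided by DESeq2 1.42.0 size factors. Between genes they are set together only in the ratios and the marker sums, with no correction for gene length. Ratios and correlations used two-sided permutation tests. The edgeR test was tested on simulated data for RES against FF: of 200 changed genes among 11385, it recovered 54% at 1.5-fold and 85% at 2-fold, and 7.33% of its 150 calls were false.

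The members, gene lists and tests were chosen with earlier results of these data known. The rule for named genes took the members called, those with the highest and lowest adjusted P in each subgroup, the paired genes, those called with PCNA, and the called other pathway genes with the 3 largest rises and falls. The remaining members and called pathway genes were added once values were known, so that each is accounted for. The ratio of RRM2 to RRM2B could not be computed, as RRM2 was not analysed here. Alternatives were DESeq2, limma 3.58.1 with voom, other scaling, filters and covariates, each quality group alone and each library left out.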

Additional observations from a re-analysis of the deposited data

How the results depend on the processing

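Under 13 alternative fits, the 9 members that rose gave 117 fold changes: 103 kept direction and call, 14 kept direction without the call and none reversed. Of the 14, 9 were the lower quality group alone, where 0 members rose (over all genes 1 rose and 0 fell). The others were TK1 with upper-quartile scaling, TK1 and ATIC with a replicate block, and TK1 and TKT without RES sows 3 and 5. In the upper quality group alone 14 members rose and 1 fell, and with limma's voom and quality weights 13 rose and 1 fell (1650 and 1543 over all genes). The cause was not tested.

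Sow numbers did not pair the diets: 1 of 13 pairs correlated over 0.1. With the replicate block 7 members rose, and 699 genes rose and 383 fell beside 943 and 666. The ratios with that pairing were 0.62, -0.08 and 0.00 (log2) for CTPS1 to CTPS2, PRPS1 to PRPS2 and IMPDH2 to IMPDH1.

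Leaving out each library in turn gave 8 to 12 members that rose and 0 to 1 that fell (PPAT, without FF sow 10 or RES sow 4), and over all genes 748 to 1254 that rose and 414 to 1096 that fell. The call of TK1 was lost without any of FF sows 2, 5, 6, 7, 8, 12, 13 and 14 or RES sows 1, 3, 6, 9, 11 and 12. The ratios ranged from 0.50 to 0.77, -0.15 to 0.06 and -0.11 to 0.18.

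For PCNA, the single FF member was lost (0 called) with Spearman's rho, without the 2 farthest sows and centred within quality group, where 38, 0 and 0 of all genes were called with r above 0. The 8 in RES became 5 with TMM-scaled counts, 2 without the 2 farthest sows and 5 centred within quality group, while calls over all genes with r above 0 went from 1079 to 742, 249 and 884. Within diets 7 to 11 members and 871 to 1517 of all genes were called with r above 0.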
